A study of Mus musculus with 6 samples.

Results

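Transcripts of 7 Kruppel-like factor genes were compared between mouse embryonic stem cells with and without E-cadherin. Klf2, Klf3, Klf4, Klf5, Klf9, Klf10 and Klf13 were chosen by name, with earlier results of these data known. Each was found once among the 55401 genes of the count table by its Ensembl identifier. All 7 had enough counts to be tested. The cells were V6.5, an embryonic stem cell line from a hybrid mouse embryo. The WT group carried intact Cdh1, the gene of the adhesion protein E-cadherin, and the second group was Cdh1-/- (called knockout here), with no drug treatment named for either. Each genotype had 3 libraries of total RNA, named A, B and C. The labels do not say whether the knockout libraries came from separate clones, nor whether libraries came from separate cultures, so p-values measure the spread between these libraries, which may be technical. By its title the study concerns how E-cadherin acts on beta-catenin.

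Kruppel-like factors are transcription factors that bind GC-rich and CACCC-type sequences through zinc fingers at the end of the protein. In mouse embryonic stem cells Klf2, Klf4 and Klf5 support the naive pluripotent state and can stand in for one another, and Klf4 is a target of the cytokine LIF through STAT3. Klf3 is a repressor that recruits the corepressor CtBP, and Klf9, Klf10 and Klf13 belong to a branch that recruits the corepressor Sin3.

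The sequences before the starts of the called genes Klf2, Klf3 and Klf4 are shown because members of the family bind the GC box (GGGCGGG or its reverse complement, CCCGCCC), which all of them held. They are RefSeq sequences of GRCm38.p6, read 5′ to 3′ toward the gene, ending at the start in the counted annotation where that lies before the RefSeq start. Capitals mark the GC boxes.
Klf2 (chr8:72318812-72319032, plus strand): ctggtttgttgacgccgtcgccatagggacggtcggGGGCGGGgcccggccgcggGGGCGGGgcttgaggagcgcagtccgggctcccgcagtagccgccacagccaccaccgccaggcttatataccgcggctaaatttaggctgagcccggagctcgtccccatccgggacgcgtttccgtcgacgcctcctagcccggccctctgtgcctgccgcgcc
Klf3 (chr5:64803271-64803387, plus strand): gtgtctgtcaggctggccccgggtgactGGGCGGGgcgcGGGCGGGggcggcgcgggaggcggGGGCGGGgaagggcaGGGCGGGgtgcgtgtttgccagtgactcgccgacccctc
Klf4 (chr4:55532476-55532725, minus strand): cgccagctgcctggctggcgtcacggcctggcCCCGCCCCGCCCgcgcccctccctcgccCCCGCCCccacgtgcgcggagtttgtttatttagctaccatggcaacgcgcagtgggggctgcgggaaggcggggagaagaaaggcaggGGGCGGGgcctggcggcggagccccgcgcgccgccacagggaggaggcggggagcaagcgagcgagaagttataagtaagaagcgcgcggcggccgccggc

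Over the 250 bases before the RefSeq start, searched on both strands, Klf2 held 2 GC boxes, Klf3 4, Klf4 4 of which the first and second overlap, Klf13 2 and Klf9 0. A GC box was present in 23.4% of 32851 such windows of the promoter table. The CACCC box CCACNCCC was found in Klf13 alone among these 5 genes, with 2 matches, against 15.87% of all windows. The STAT-type sequence TTCNNNGAA was found in Klf9 alone (7.02% of all windows). The TCF/LEF sequence CTTTGAT (3.21% of all windows) and the TEAD sequence GGAATG (12.64%) were in none of the 5 windows. Klf5 and Klf10 had no entry in the promoter table. The GC boxes of Klf2, which fell, and of Klf3 and Klf4, which rose, stood in windows of like composition, with 71.2%, 78.4% and 74.0% G or C.

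The libraries held between 18020719 and 23381942 counts, so that each of the 7 genes was counted at least 1138 times in every library. Cdh1 checked the labels. It stood at 569, 571 and 537 CPM (CPM, counts per scaled library size) in the WT libraries A to C and at 169, 183 and 166 CPM in those of the knockout. The stem cell markers Pou5f1, Sox2 and Nanog were each at 376 CPM or more in every library. Of 8 stem cell markers Tdgf1 and Fgf4 were called higher (log2 fold changes 0.63 and 0.29) and 0 lower. With one library left out at a time 1 to 4 were called higher. The summed level of the 8 was 4207 to 4566 CPM in WT and 4889 to 5828 CPM in the knockout. Tdgf1 had a WT mean of 1302 CPM and a knockout mean of 2014 CPM. Knockout replicate A stood apart from B and C on the second principal component (43.5 against -11.7 and -25.8), and results that rest on it are given without it. Genes of chromosome 14, among them Klf5, were raised as a group in the knockout, with a median log2 fold change of 0.53 over 622 tested genes. Of 9 markers of primitive endoderm, a cell type that embryonic stem cells can form, all 9 were called higher in the knockout (7 to 9 with one library left out at a time). Over all tested genes 7.60% were called higher. The alternative tools DESeq2 and limma-voom each called 8 of the 9. Gata4 and Sox7 among them lie on chromosome 14, where 49.8% of tested genes were called higher. The summed level of the 9 was 285 to 394 CPM in WT and 820 to 1516 CPM in the knockout, highest in replicate C. Of 8 trophoblast markers Tfap2c was called lower and none higher, and Elf5 was near 0. Their summed level was 116 to 127 CPM for WT libraries and 63.0 to 81.6 CPM for knockout libraries. Tfap2c made up most of each sum, with a WT mean of 96.2 CPM and a knockout mean of 46.2 CPM. The lower sum therefore does not describe the set. Eomes, Krt7 and Ascl2 had log2 fold changes of 0.26, 0.13 and 0.10. Cdx2, Gata3 and Hand1 had -0.81, -0.25 and -0.64. Of 9 fibroblast markers Col1a1 was called lower and none higher (summed level 27.3 to 44.8 CPM in WT and 19.9 to 32.2 CPM in the knockout). Without knockout replicate A, 3 of the 5 tested fibroblast markers were called lower, beside 2784 of all 18000 tested genes called in that fit. Their median log2 fold change was -1.71 over the 5, against -0.82 with all libraries. Col1a1 was at most 15.3 CPM, Fap was at 0 in every library and Postn, Lum and Dcn stayed under 1 CPM. Thy1 and Pdgfrb lay between 5.85 and 10.8 CPM in every library and were not called. Col1a2 and Col3a1 were highest in replicate A of both genotypes, at 4.59 and 5.13 CPM in WT and 3.32 and 2.32 CPM in the knockout.

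Of the 7 genes, 4 were called at an adjusted p under 0.05, 3 higher and 1 lower in the knockout. Over all 17325 tested genes 13.3% were called, 7.60% higher and 5.71% lower. In the same 4 genes the libraries of the genotypes did not overlap, a separation seen for 30.7% of all tested genes. Klf3, Klf4 and Klf5 rose, Klf2 fell, and Klf9, Klf10 and Klf13 were not called. The median log2 fold change was 0.25 over the 7 genes and -0.01 over all tested genes, and the median absolute log2 fold change was 0.60 against 0.23. The 7 were chosen with earlier results of these data known, so these comparisons with all genes are a description and not a test.

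**Figure D1:**
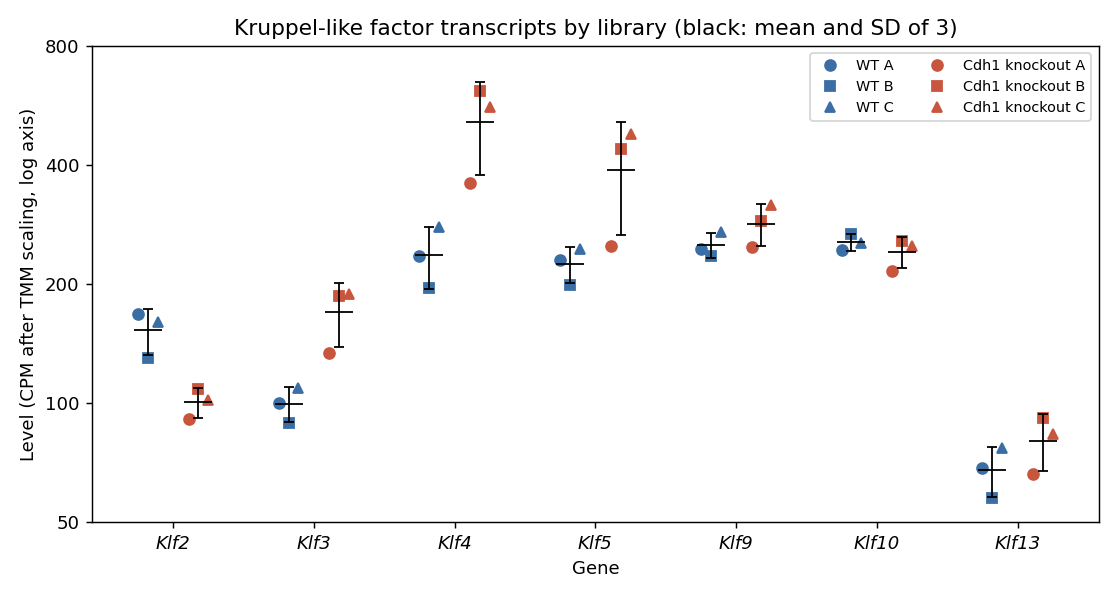
Level of the 7 Kruppel-like factor genes in each library, in CPM after TMM scaling on a log axis. Blue symbols are WT and red symbols knockout libraries, the symbol gives the replicate letter, and black bars give the mean and SD of 3 libraries. Klf2 is lower in every knockout library, Klf3, Klf4 and Klf5 are higher in every one, and knockout replicate A is the lowest knockout library for all 7 genes.

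Levels of different genes were compared per kilobase of exon (CPM per kb). In WT the order was Klf2 at 82.7 ± 10.9, Klf4 at 78.1 ± 13.8, Klf10 at 66.7 ± 3.26, Klf9 at 55.9 ± 4.09, Klf5 at 43.2 ± 4.56, Klf3 at 18.5 ± 1.85 and Klf13 at 10.2 ± 1.48 CPM per kb (SD, n = 3). The ranges of Klf2 and Klf4 overlapped, as did those of Klf4 and Klf10, and the later neighbours in the order did not overlap. In the knockout Klf4 led with 169 ± 44.5 CPM per kb. Klf5 at 74.9 ± 23.7, Klf9 at 63.3 ± 7.75, Klf10 at 62.9 ± 5.64 and Klf2 at 54.4 ± 4.72 CPM per kb followed with overlapping ranges, and Klf3 at 31.6 ± 5.79 and Klf13 at 12.1 ± 1.98 CPM per kb closed the order. Klf2 thus stood at place 1 in WT and at place 5 in the knockout, and Klf13 came last in both.

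Klf4, one of the factors used to reprogram somatic cells to pluripotency, showed the largest change of the 7. WT libraries A to C held 236, 195 and 279 CPM of it, and knockout libraries A to C held 360, 616 and 562 CPM. Every knockout library was above every WT library, and knockout replicate A was the nearest to WT. The knockout mean was 2.17-fold the WT mean (log2 fold change 1.12, adjusted p 0.000398, standard error 0.17). The log2 fold change was 1.32 without knockout replicate A and at least 0.97 in each fit that left out one library, and Klf4 was called in all 6. Klf4 was also the only one of the 7 called against a fold of 1.5 (adjusted p 0.0349). In bulk RNA, a change in the number of cells that express a gene and a change in RNA per cell cannot be told apart. The primitive endoderm markers rose in the same libraries, and their part in this and the other changes was not tested.

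Klf2, a direct target of the pluripotency factor Oct4 that acts beside Klf4 in the naive state, moved the other way. WT libraries held 168, 130 and 161 CPM and knockout libraries 91.1, 108 and 102 CPM. The highest knockout library lay below the lowest WT library. The knockout held 65.8% of the WT mean (log2 fold change -0.60, adjusted p 0.00144, standard error 0.11). The call held in each of the 6 fits that left out one library, with log2 fold changes from -0.71 to -0.53. Neighbouring genes did not share the fall. Ap1m1, Gm10282, Eps15l1 and Calr3, the nearest well counted genes on either side of Klf2 on chromosome 8, had log2 fold changes from 0.11 to 0.34 and none was called.

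Klf5, which supports self-renewal of stem cells and the early trophectoderm of the embryo, was counted at 230, 199 and 246 CPM in WT. In the knockout it was at 249.2 CPM in replicate A, 440 CPM in replicate B and 480 CPM in replicate C. Replicate A lay just above the highest WT library, and replicates B and C were far above. The log2 fold change was 0.79 (standard error 0.18, adjusted p 0.00735). Without WT replicate B the adjusted p was 0.0684, and without knockout replicate A the log2 fold change was 1.03 (adjusted p 2.35e-07).

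Klf2, Klf4 and Klf5 can replace one another, so their makeup was described in each library as shares of their summed level per kilobase. Klf4 made up 36.6%, 37.3% and 40.7% of the sum in WT and 55.0%, 58.7% and 55.7% in the knockout. Klf2 made up 42.6%, 40.6% and 38.5% in WT and 22.8%, 16.9% and 16.6% in the knockout. On this scale Klf2 and Klf4 were near parity in WT and Klf4 held over 50% of the sum in every knockout library. Neither held without length correction. The share of Klf5 per kilobase was 20.8% to 22.1% in WT and 22.2% to 27.7% in the knockout. The ratio of Klf4 to Klf2 was 0.944 ± 0.102 in WT and 3.08 ± 0.581 in the knockout (SD, n = 3). Knockout replicate A shared the altered ratio, at 2.41, although its summed level of 216 CPM per kb lay within the WT range of 173 to 226 CPM per kb. Knockout replicates B and C summed to 347 and 333 CPM per kb.

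**Figure D2:**
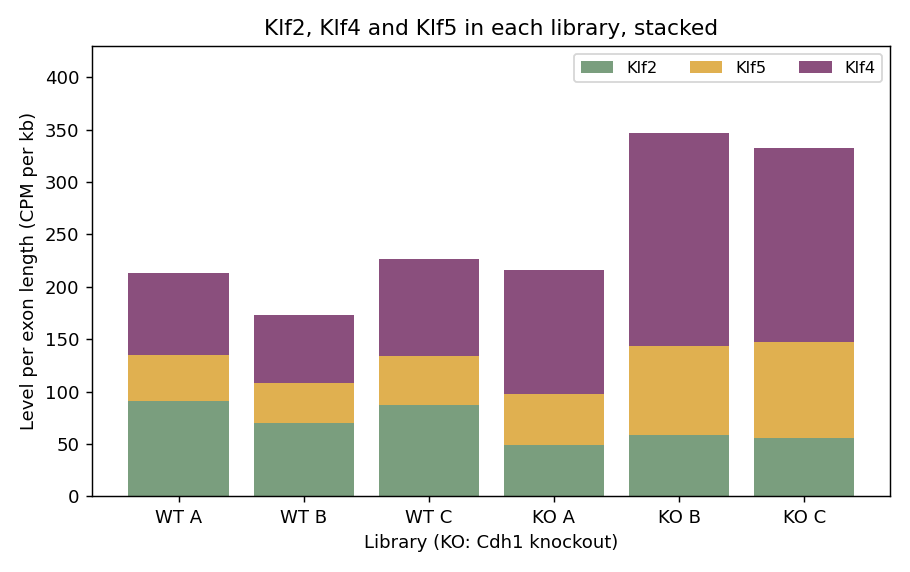
Levels of Klf2 (green), Klf5 (yellow) and Klf4 (purple) per exon length, in CPM per kb, stacked for each library. The stack of knockout (KO) replicate A, 216 CPM per kb, is as high as the WT stacks but holds more Klf4 and less Klf2, and those of replicates B and C reach 347 and 333 CPM per kb.

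Klf5 lies on chromosome 14 (99298691 to 99315036, plus strand, GRCm38), whose genes were raised together, so its change was set beside that of its chromosome. Of the tested chromosome 14 genes 49.8% were called higher. The log2 fold change of Klf5 exceeded that of 77.65% of them. Relative to the WT mean, Klf5 was higher by 0.15 on the log2 scale in knockout replicate A, by 0.97 in B and by 1.10 in C, while the median of chromosome 14 was 0.57, 0.57 and 0.56. Klf5 therefore lay 0.42 below the median of its chromosome in replicate A (-0.42), and 0.40 and 0.54 above it in B and C. With the median of each chromosome removed from each library, the log2 fold change of Klf5 was 0.23 (standard error 0.18, adjusted p 0.476), and 9.78% of all genes were called. With knockout replicate A left out as well, a fit added after the data were seen, it was 0.47 (standard error 0.09, adjusted p 0.00312). After the same removal Klf2 had -0.64, Klf3 0.77 and Klf4 1.11, and their calls held.

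The genes around Klf5 were raised as well. Within 5 Mb of its start lay 14 other genes whose counts averaged 100 or more, all with log2 fold changes above 0 (median 0.47), of which 10 were called higher. Klf5 exceeded 11 of the 14. The nearest genes changed less than Klf5. Dis3, an exosome ribonuclease gene, changed by 0.19 on the log2 scale (adjusted p 0.197), Pibf1 by 0.37 (adjusted p 0.120) and Klf12 by 0.24 (adjusted p 0.346). Bora and Mzt1, nearer to Klf5 than Klf12, were called higher, with 0.39 (adjusted p 0.00879) and 0.49 (adjusted p 0.0044). With chromosome medians removed Dis3 turned to -0.37 (adjusted p 0.0160). Tbc1d4, beyond Klf12, changed by 0.99 (adjusted p 0.00066), and by 0.43 with chromosome medians removed, where its call was lost (adjusted p 0.0998). Klf12, a CtBP-dependent repressor of the same family, is the next well counted gene after Klf5, with its start 571.9 kb away.

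**Figure D3:**
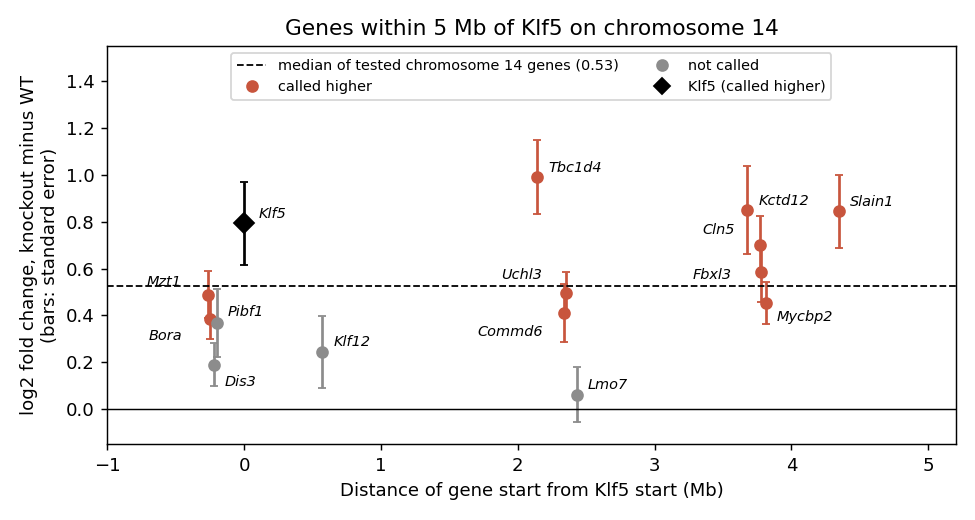
log2 fold change (knockout minus WT) with its standard error for genes averaging 100 or more counts within 5 Mb of Klf5, against the distance of their start from that of Klf5 in Mb. Red points were called higher, grey points were not called, the black diamond is Klf5 at 0.79, and the dashed line is the chromosome 14 median of 0.53. All genes lie above 0, and Dis3, Pibf1, Bora, Mzt1 and Klf12 near Klf5 lie below the dashed line.

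Klf3, the CtBP-recruiting repressor, rose as well. Its WT libraries held 100.3, 89.3 and 109 CPM, and its knockout libraries 134, 187 and 189 CPM. All knockout libraries were above all WT libraries. The knockout mean was 1.71-fold the WT mean (log2 fold change 0.77, adjusted p 0.000733, standard error 0.12), and the call held in each of the 6 fits that left out one library. Klf8, another CtBP-recruiting member and a gene that Klf3 is known to repress, had 25.8, 29.5 and 24.8 CPM in WT against 27.5, 42.3 and 42.9 CPM without E-cadherin. Its groups overlapped in knockout replicate A. Its log2 fold change of 0.50 was just past the threshold (adjusted p 0.0478), and only the fit without knockout replicate A kept the call among the 6 that left out one library. The corepressor genes Ctbp1 and Ctbp2 had log2 fold changes of 0.01 and 0.10 and were not called.

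Klf9, Klf10 and Klf13 stayed within or near the spread between libraries. Klf10, first described as an early response gene of TGF-beta, had 243, 268 and 254 CPM in WT against 216, 256 and 249.8 CPM in the knockout. Its groups overlapped (log2 fold change -0.08, standard error 0.09, adjusted p 0.606). Klf9, a gene induced by glucocorticoid and thyroid hormones in many tissues, had 246, 235 and 271 CPM in WT against 248, 288 and 317 CPM in the knockout. Its groups overlapped in knockout replicate A (log2 fold change 0.18, standard error 0.10, adjusted p 0.265). Klf13, a regulator of the chemokine Ccl5 in T cells, had 68.6, 57.5 and 77.1 CPM in WT against 66.1, 92.0 and 83.4 CPM in the knockout, with overlap (log2 fold change 0.25, standard error 0.13, adjusted p 0.238). Without knockout replicate A, Klf9 changed by 0.27 (adjusted p 0.0466) and Klf13 by 0.37 (adjusted p 0.0305). In that fit 6 of the 7 genes were called, beside 2784 of all 18000 tested genes. Klf10 was called in none of the 6 fits that left out one library.

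The libraries ordered the genes in a like way within each genotype. Knockout replicate A was the lowest knockout library for 7 of the 7 genes, which held for 37.2% of all tested genes. WT replicate B was the lowest WT library for 6 of the 7, all but Klf10, which held for 32.8% of all tested genes. Klf4 and Klf5 varied most between knockout libraries, with coefficients of variation of 26.3% and 31.7%, against 17.6% and 10.5% in WT. Klf10 varied least in WT (4.89%) and Klf2 varied least in the knockout (8.67%).

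The rest of the Klf and Sp family was examined for comparison. Sp factors share the zinc fingers and bind GC boxes. Of 19 other members, 18 were tested (all but Sp6), 1 was called higher and 3 lower. Over all tested genes 7.60% were called higher and 5.71% lower, and the count was not tested against these shares. The median log2 fold change of the 18 was 0.04. Sp8, a factor of limb and brain development, fell from 3.33, 2.63 and 4.20 CPM in WT to 0.774, 0.699 and 0.606 CPM (log2 fold change -2.28, adjusted p 0.000599). Its knockout libraries all lay below its WT libraries, at a low level. Klf7, on chromosome 1, changed by -0.66 on the log2 scale (adjusted p 0.0475), with overlapping groups and no call without WT replicate A or B or knockout replicate B or C. With chromosome medians removed it had -0.37 (adjusted p 0.321). Sp4 changed by -0.67 on the log2 scale (adjusted p 0.0205), with no call without WT replicate B or C or knockout replicate B. Klf17, a factor of the early human embryo that is scarce in mouse stem cells, had -1.39 (adjusted p 0.0542) at 1.92 to 3.30 CPM in WT and 0.437 to 1.51 CPM in the knockout, and passed without knockout replicate C (adjusted p 0.0289). It passed also in DESeq2 (adjusted p 0.0296) and limma-voom (0.0388).

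The remaining members were not called. The widely expressed Sp1 and Sp3 had log2 fold changes of 0.15 and 0.05, and Klf6 and Klf11 had 0.00 and 0.02, each with a standard error of at most 0.10. Sp2 had 0.26 (adjusted p 0.181, and 0.0392 without knockout replicate A), Klf15 had 0.32 and Klf16 0.25. Klf1, Klf14, Sp5, Sp7 and Sp9 were at or under about 2 CPM in every library, with standard errors of 0.47 to 0.67 on the log2 scale. Of the family members above 50 CPM in WT, a level not set in advance, the called ones were Klf2, Klf3, Klf4 and Klf5. Klf6, Klf9, Klf10, Klf11, Klf13, Sp1 and Sp3 were above it too and were not called. The called Klf7, Klf8, Sp4 and Sp8 lay below that level. With chromosome medians removed the call of Klf5 was lost (adjusted p 0.476).

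**Figure D4:**
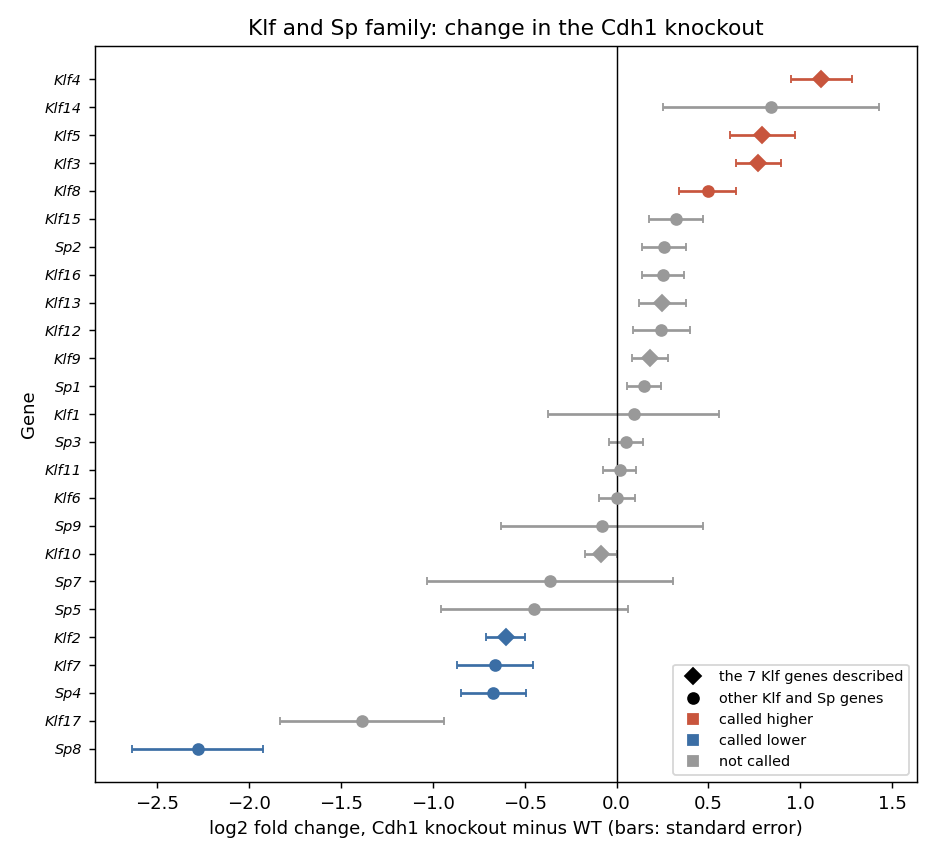
log2 fold change (knockout minus WT) with its standard error for the 25 tested Klf and Sp genes, in rank order. Diamonds are the 7 genes described here and circles the other members, with red for called higher, blue for called lower and grey for not called. Klf4 at 1.12 is the highest and Sp8 at -2.28 the lowest.

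Genes that act on the Klf factors were examined by pathway, beside the 13.3% called over all tested genes, and none of these shares was tested against it. Of 6 genes of the LIF and STAT3 pathway, the input of Klf4, 0 were called in edgeR's test, DESeq2 or limma-voom (2 had an unadjusted p under 0.05, and 1 was called without knockout replicate B). Their log2 fold changes lay between -0.07 and 0.28. Jak1 had the highest, at 86.8, 94.9 and 82.4 CPM in WT and 111, 96.9 and 114 CPM in the knockout (adjusted p 0.0639). Jak1, Stat3 and the feedback inhibitor Socs3 were higher in all knockout libraries than in all WT libraries. The libraries of the genotypes were separated, in either direction, for 30.7% of all tested genes. Stat3 and Socs3 had log2 fold changes of 0.14 (adjusted p 0.294) and 0.19 (adjusted p 0.152) that did not pass. Of 5 tested genes of the ERK5 and MEF2 pathway, an input of Klf2 in blood vessels, 0 were called by any of these tools and 0 had an unadjusted p under 0.05, with log2 fold changes from -0.17 to 0.12.

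Of 7 TGF-beta, activin and SMAD genes, an input of Klf10, 2 were called higher. The receptor gene Tgfbr2 rose from 2.02 CPM on average to 5.30 CPM (log2 fold change 1.39, adjusted p 0.00509), and the activin receptor gene Acvr1b had 0.41 (adjusted p 0.0052). Among 5 tested genes of hormone signalling toward Klf9, the glucocorticoid receptor gene Nr3c1 rose from 26.4, 33.9 and 26.2 CPM to 42.5, 42.9 and 50.6 CPM (log2 fold change 0.65, adjusted p 0.00289). Without knockout replicate A, 2 of 6 tested were called higher, beside 2784 of all 18000 tested genes called in that fit. The glucocorticoid target genes Fkbp5, Tsc22d3 and Per1 had log2 fold changes of 0.03, -0.27 and -0.15 and were not called. Of 9 cofactor genes, among them Sin3a, Sin3b, Hdac1 and Hdac2, 0 were called by edgeR, DESeq2 or limma-voom, and 2 had an unadjusted p under 0.05. The same counts, 0 and 2, held for 8 genes that act on the stability or phosphorylation of Klf proteins, of which 1 was called without knockout replicate A.

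Partners and described targets of Klf2, Klf4 and Klf5 in stem cells were mostly not called. Of 14 genes, 1 was called higher and 2 lower, against 13.3% called over all tested genes. Their median log2 fold change was 0.12, and 0.03 to 0.21 with one library left out at a time. Tfcp2l1, another factor of the naive circuit, had 320, 378 and 345 CPM in WT against 496, 586 and 606 CPM in the knockout group (log2 fold change 0.70, adjusted p 0.000222). Lefty1, an inhibitor of Nodal signalling, had 97.7, 56.2 and 60.9 CPM in WT against 27.7, 45.4 and 26.2 CPM in the knockout group (log2 fold change -1.11, adjusted p 0.00278). Both are on chromosome 1, whose median lay between -0.31 and -0.27 on the log2 scale in the knockout libraries, relative to the WT mean. Fbxo15, a reporter gene of pluripotent cells, had -0.63 (adjusted p 0.0222), and its call was lost without WT replicate B or C or knockout replicate B, and in DESeq2 (adjusted p 0.116). The core factors Pou5f1 and Sox2 had log2 fold changes of 0.14 and -0.03, Nanog had 0.24 and Esrrb 0.10, and none was called. Without knockout replicate A, 5 of the 14 were called higher and 2 lower, beside 2784 of all 18000 tested genes called in that fit.

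Several Klf genes are immediate early genes, which respond within minutes to serum or handling, so 15 genes of that class were set beside them. Of the 12 tested, Jun and Nr4a1 were called higher and 0 lower, beside 13.3% called over all tested genes. The median log2 fold change of the 12 was -0.07. Without knockout replicate A 4 of 14 tested were called higher, in a fit that called 2784 of all 18000 tested genes. Without knockout replicate C or WT replicate B 1 was called higher and 1 lower, and without WT replicate A or C 1 was called higher. The median lay between -0.10 and 0.07 over the fits with one library left out. DESeq2 called 3 and limma-voom 1. Jun was at 10.8, 12.9 and 13.4 CPM in WT and at 21.6, 18.4 and 23.8 CPM in the knockout group (log2 fold change 0.78, adjusted p 0.0026). Nr4a1 was near the threshold (log2 fold change 0.40, adjusted p 0.0486), and among the 6 fits with one library left out only that without knockout replicate A kept the call. Their summed level was 429 to 491 CPM in WT and 423 to 563 CPM in the knockout, lowest in knockout replicate A. Fos, Egr1, Junb, Dusp1 and Atf3 were not called.

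**Figure D5:**
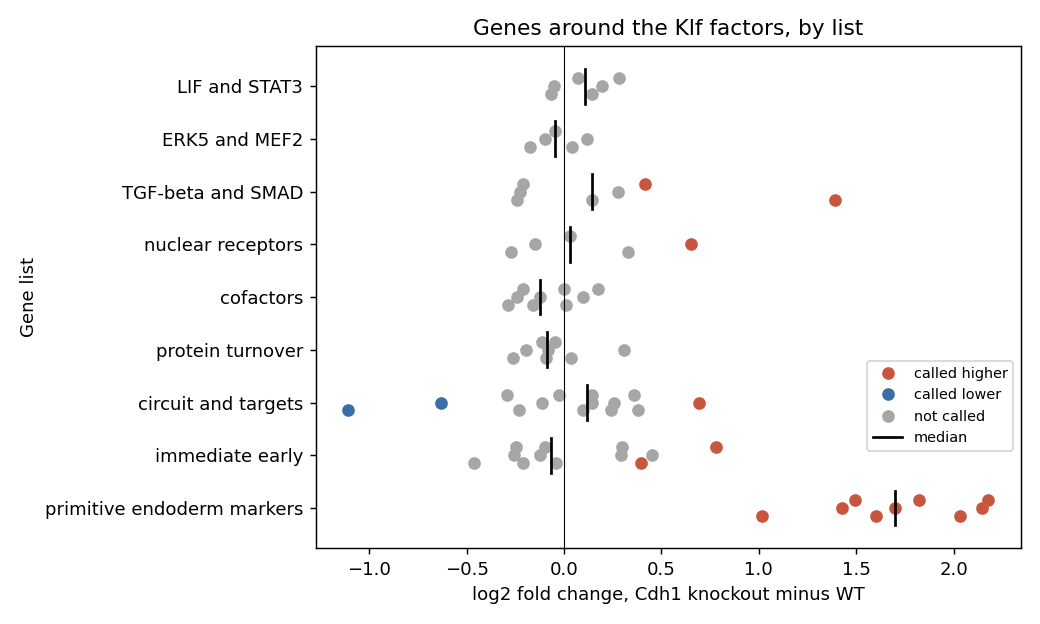
log2 fold change (knockout minus WT) of every tested gene of 9 lists around the Klf factors, one row per list, with red for called higher, blue for called lower, grey for not called and a black line at the median of the list. Most points lie near 0, and the 9 primitive endoderm markers lie between 1.01 and 2.18.

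The genes whose pattern over the 6 libraries was most like that of each Klf gene were listed among 11364 others averaging 100 or more counts, as a description, since many genes correlate closely over so few libraries. For Klf4 these were Mavs (Pearson r 0.999), Fut11 (0.998) and Mtcl1 (0.996), and 652 genes had an r over 0.9. For Klf3 they were Map1a, Mavs and Plec (0.997, 0.997 and 0.997), so that Mavs, an adaptor of antiviral signalling, stood near both. Mavs itself changed by 0.48 on the log2 scale (adjusted p 0.0179) and was called in 2 of the 6 fits that left out one library. For Klf5 they were Fam120b, Rnd3 and Trps1 (0.995, 0.994 and 0.991), for Klf2 Mthfsd, Tmem183a and Atg16l1 (0.994, 0.991 and 0.990). The lists of Klf9 (Orai1, Nfatc2ip and Ubqln2), Klf10 (Emsy, Kbtbd8 and Gm4864) and Klf13 (Egln2, Rnaseh2a and Edf1) had r of at least 0.985, and none of those 9 genes was called. None of these genes lies on the chromosome of its Klf gene except Mthfsd, which shares chromosome 8 with Klf2, and Egln2, which shares chromosome 7 with Klf13. Fut11 lies on the raised chromosome 14, and Tmem183a and Atg16l1 on the lowered chromosome 1.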

How the data were processed

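RNA was sequenced from 3 WT and 3 Cdh1-/- V6.5 libraries made with a directional kit, per the labels' protocols. The authors deposited raw counts per gene with exon lengths, and per the submitters' processing notes cutadapt 2.10, STAR 2.7.5b, featureCounts 2.0.1 and the build GRCm38 were used. The strand setting of counting is not given in the sources used here, and no exon base of the 7 genes lies under a gene of the other strand. Between 78.1% and 83.1% of counts from 1 to 10 were even, as when both mates of a pair are counted. Of 55401 identifiers 55141 received a symbol.

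Counts were fitted in R 4.3.3 with edgeR 4.0.16 (filterByExpr by group, smallest count 10 and smallest total 15, TMM scaling, glmQLFit and glmQLFTest, genotype as the only term), two-sided, over 17325 genes, with Benjamini-Hochberg adjustment. Genes with an adjusted p under 0.05 were called. Standard errors derive from the F statistic. The procedure was tested on simulated data. Alternatives used DESeq2 1.42.0 and limma 3.58.1 (voom), other scalings and filters, halved counts, a fold of 1.5, the replicate letter as a block, removed chromosome medians (over genes averaging 100 or more counts, prior count 2 on the log2 CPM scale) and leaving out each library in turn.

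The members and lists were chosen with earlier results of these data known. Named were the 7 genes, Cdh1, the tested Klf and Sp genes, up to 4 called genes of each other list, 2 well counted neighbours on either side of each member and its 3 most alike genes. Other genes were named after their values were seen. Intervals from depth cover counting error only.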

Additional observations from a re-analysis of the deposited data

How the results depend on the processing

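All 7 genes kept their direction under 18 other settings. Klf4 was called under each of them, with log2 fold changes from 0.97 to 1.32. Between 3 and 6 of the 7 were called, except against a fold of 1.5, where 1 was called (Klf2 at -0.60 with adjusted p 1, Klf3 at 0.77 with 0.442, Klf5 at 0.79 with 0.648). With chromosome medians removed Klf5 had 0.23 and Dis3 turned to -0.37. With one library left out at a time, Klf5 ranged from 0.62 to 1.03, Klf9 from 0.10 to 0.27 and Klf13 from 0.14 to 0.37. The cause was not tested.

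The other Klf and Sp genes gave 4 calls, 2 with library totals or with chromosome medians removed, 1 against a fold of 1.5 or at an adjusted p under 0.01, and 1 to 5 with one library left out. All genes gave 2307 calls, 355 against a fold of 1.5, 1242 at an adjusted p under 0.01, 1374 without WT replicate A and 2784 without knockout replicate A. Without length correction the mean shares were 24.9% in WT and 10.4% in the knockout for Klf2, 38.4% and 51.2% for Klf4, and 36.7% and 38.4% for Klf5. Klf4 then held 49.1% in knockout replicate C. Of 74 other named genes, 21 lost and 14 gained a call under some alternative. A further 1, Dis3, was called in the direction opposite to its main estimate. Of all called genes 57.09% were higher in the knockout, 50.21% with library totals and 49.89% with upper-quartile scaling.

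Replicate letters paired the libraries weakly for A and C and not for B (correlations of deviations 0.14, -0.03 and 0.23 for A, B and C). Whether a letter marks a shared batch was not tested. With the letter as a replicate block 4 of the 7 genes were called, with Klf4 at 1.09 and Klf5 at 0.75, and 2686 genes in all. Libraries C correlated best with each other, as did libraries A, and WT replicate B correlated best with knockout replicate A (0.12).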
